A study of Arabidopsis thaliana with 18 samples.

Results

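The hypoxia by genotype interaction of amiRAP2.2-12 is the change of transcript level from air to low oxygen in plants with an artificial microRNA, minus the same change in wild type plants. It was computed for every probe set of the arrays other than the control probe sets, 22746 in all, from 12 of the 18 arrays of the series, which lie in 4 of its 6 groups of 3. All samples were whole rosettes of 5-week-old Arabidopsis thaliana, Columbia-0. The amiRAP2.2-12 plants carried 35S::amiRAP2.2-12, in which the constitutive 35S promoter drives an artificial microRNA, and they were kept either at 1% oxygen (hypoxia) or at 21% oxygen (air). The wild type plants carried no transgene and were kept at the same pair of oxygen levels. Every group of both genotypes was treated in the dark for 1.5 h at 22 °C, after growth in 8 h of light and 16 h of darkness. The third genotype of the series, 35S::HA::RAP2.12 (HA-RAP2.12), entered the fit to estimate the spread and is quoted only beside results on amiRAP2.2-12. The labels do not say whether replicates were separate plants or whether the transgenic line is more than 1 transformant, so every p-value measures the spread between these samples only.

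RAP2.12 and RAP2.2 are transcription factors of group VII of the ethylene response factors. These factors are destroyed by the N-degron pathway while oxygen is present, and under low oxygen they persist, enter the nucleus and activate genes of fermentation and of the wider low-oxygen response. The artificial microRNA is named for both factors, and the interaction asks whether the response to low oxygen differs where they are targeted. No probe set used here was named for RAP2.12 or RAP2.2, so the effect of the microRNA on its targets was not analysed here, and neither were ADH1, PDC1, HRE1 or HRE2.

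Values are on the log2 scale, 1 per probe set and array, with a lowest value of 2.11. A group with a mean under log2 2.5 is called at the floor, where values have no order and differences depend on how background was removed. The annotation gave 1 gene for 13513 probe sets. The leaf markers RCA, SBPASE and PRK, which encode Rubisco activase and a pair of Calvin cycle enzymes, averaged between log2 13.64 and 14.07 on every one of the 12 arrays. Among root markers, AT4G11290 and EXPA7 were at the floor in all 4 groups, whereas PYK10, a beta-glucosidase gene, had values of 8.21, 3.85 and 6.76 in amiRAP2.2-12 hypoxia, 8.76, 8.27 and 7.76 in amiRAP2.2-12 air, 8.74, 8.68 and 8.55 in wild type hypoxia, and 7.84, 7.93 and 7.91 in wild type air. Flower, seed, senescence and phloem markers had no named probe set.

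The 3 amiRAP2.2-12 hypoxia arrays differed from each other more than those of amiRAP2.2-12 air and of both wild type groups. The median SD between replicates over brightly hybridised probe sets was 0.223 in amiRAP2.2-12 hypoxia and 0.151 in amiRAP2.2-12 air, against 0.110 in wild type hypoxia and 0.104 in wild type air. Replicate 2 of amiRAP2.2-12 hypoxia stood apart: its median lay 0.142 below the common median, and limma's arrayWeights gave it a weight of 0.128, where the other 11 arrays of both genotypes had weights of 0.446 or more. The sections below give the calls and list medians that moved without it.

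Fewer probe sets passed the test for a response to hypoxia in amiRAP2.2-12 than in wild type, but the number that rose depended on the scaling. By limma, with p-values adjusted after Benjamini and Hochberg across every tested probe set and a threshold of 0.05, 1829 probe sets (8.04%) rose and 1882 (8.27%) fell in amiRAP2.2-12, and 2608 (11.5%) rose and 2343 (10.3%) fell in wild type. With each array centred on the common median, 2711 rose and 1578 fell in amiRAP2.2-12, and 2686 rose and 2330 fell in wild type, so the counts of rises no longer differed in that direction. Counts of calls do not test a difference between the genotypes, which the interaction term does.

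The interaction itself passed the threshold for 40 probe sets, 0.176% of those tested. It was below 0 for 22 of them (0.0967%) and above 0 for 18 (0.0791%), and 20 were at least 2-fold in size. These calls use the spread of all 18 arrays: fitted on only the 12 arrays of both genotypes, 8 probe sets passed, of which 1, 265418_at, was among the 40. None of the 20 named genes among the 40 passed in that fit (limma adjusted p between 0.0559 and 0.195). At an unadjusted p under 0.05 the counts were 1211 below 0 (5.32%) and 971 above 0 (4.27%), and the median over all probe sets was 0.00. Over all probe sets 59.5% of interactions were below 0 and 39.6% above 0, and median centring moved their median to 0.078. Of these probe sets, 7700 were at the floor in all 4 groups, where values have no order. The shares by sign quoted below are therefore only a rough background. In 37 of the 40 the response was smaller in size in amiRAP2.2-12 than in wild type. The HA-RAP2.12 response was nearer to that of amiRAP2.2-12 in 27 of the 40 and nearer to that of wild type in 13. Among the 22 with a lower interaction, wild type rose or had a positive difference in 21, and all 18 with a higher interaction had a negative difference in wild type. These counts by size, sign and nearest response, and the patterns given below, use values of the contrast that chose the 40. They are a description of the 40 only.

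**Figure D1:**
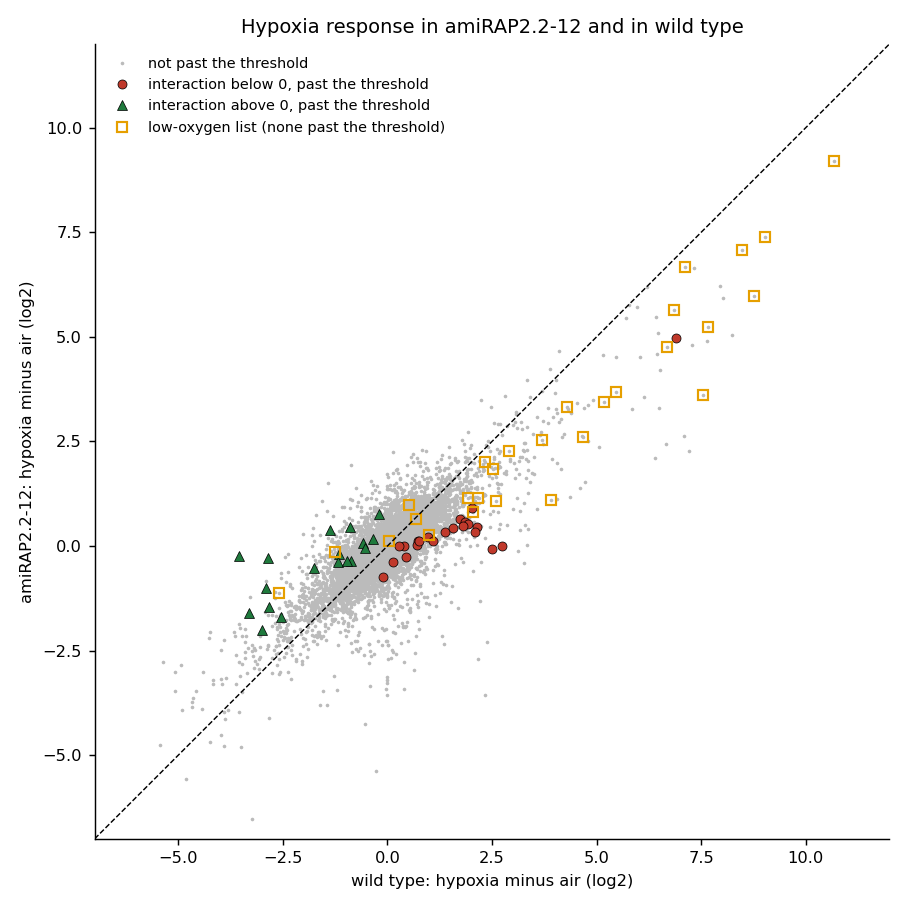
Log2 difference between hypoxia and air in amiRAP2.2-12 (vertical axis) against the same difference in wild type (horizontal axis) for 22746 probe sets, with 22 probe sets of lower interaction as red circles, 18 of higher interaction as green triangles and the 28 measured members of the low-oxygen list as open squares. The dashed line marks equal responses; the red circles lie below it and the green triangles above it, and the squares with the largest wild type responses lie below it without passing the threshold.

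The most common pattern, in 13 of the 40, was a rise in wild type with no amiRAP2.2-12 response past the threshold. A further 6 rose in both genotypes, by less in amiRAP2.2-12, and 1 rose in wild type and fell in amiRAP2.2-12. Of those that fell in wild type, 9 fell by less in amiRAP2.2-12, 7 had no amiRAP2.2-12 response past the threshold, and 1, AT2G41090, rose. Only 3 passed in amiRAP2.2-12 alone: the falls of AT3G02930 and AT1G56350, and the rise of a probe set without a gene name.

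The difference between the genotypes lay mostly under hypoxia. Over the 40 probe sets, the median size of the difference between amiRAP2.2-12 and wild type was 0.82 under hypoxia and 0.22 in air, and it was larger under hypoxia in 35. The hypoxia arrays of both genotypes did not overlap for 36 of the 40: in 20 of the 22 with a lower interaction every amiRAP2.2-12 array was below every wild type array, which held for 6.59% of all probe sets, and in 16 of the 18 with a higher interaction every amiRAP2.2-12 array was above, which held for 5.13%. The air arrays did not overlap for 20 of the 40, against 12.1% of all probe sets. These counts use the contrast that chose the 40 probe sets and are a description of them.

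Of the 40, 20 had 1 named gene, 11 with a lower and 9 with a higher interaction, and all 20 are given here. AT5G24240, a gene of the phosphatidylinositol 4-kinase family, had the largest interaction below 0 among them. Its values were 2.11 on all 6 amiRAP2.2-12 arrays, 5.22, 4.05 and 5.27 in wild type hypoxia and 2.11 on all 3 wild type air arrays, so it left the floor only in wild type under hypoxia. The interaction was -2.74 (SE 0.32, limma adjusted p = 0.0158), and its size depends on the floor. The arrays at 2.11 had no spread and entered the common estimate of the spread, so the p-value depends on the floor too. Without wild type hypoxia replicate 2, limma's adjusted p was 1.94e-17.

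AT1G26390, one of a cluster of berberine bridge enzyme-like genes induced in defence, behaved alike. It had values of 2.32, 2.5 and 2.32 in amiRAP2.2-12 hypoxia, 2.32, 2.5 and 2.5 in amiRAP2.2-12 air, 5.26, 5.39 and 4.35 in wild type hypoxia and 2.5 on each wild type air array. Again only the wild type hypoxia arrays stood above the background, and the interaction was -2.56 (SE 0.42, limma adjusted p = 0.0435, or 0.0596 without amiRAP2.2-12 hypoxia replicate 2). Its neighbours on the defence list did not share this. The interaction was 0.80 (SE 0.91) for AT1G26380, 0.76 (SE 0.73) for AT1G26420 and -0.02 (SE 0.02) for AT1G26410, and none passed the threshold.

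AT1G02460, a gene of the pectin lyase-like superfamily, had values of 3.05, 2.93 and 3.77 in amiRAP2.2-12 hypoxia, 3.19, 3.0 and 2.53 in amiRAP2.2-12 air, 4.81, 4.80 and 4.65 in wild type hypoxia and 2.53, 2.81 and 2.65 in wild type air, with an interaction of -1.75 (SE 0.29, limma adjusted p = 0.0435, or 0.0673 without amiRAP2.2-12 hypoxia replicate 2). AR791, annotated as an actin-binding protein, averaged 3.75 ± 0.18 in amiRAP2.2-12 hypoxia and 3.31 ± 0.22 in amiRAP2.2-12 air, against 4.74 ± 0.00 in wild type hypoxia and 3.17 ± 0.12 in wild type air (SD, n = 3 each), an interaction of -1.13 (SE 0.15, limma adjusted p = 0.0171). AT1G73390, which encodes a protein with a BRO1-like domain, averaged 6.16 ± 0.27 in amiRAP2.2-12 hypoxia and 5.51 ± 0.05 in amiRAP2.2-12 air, against 7.46 ± 0.11 in wild type hypoxia and 5.72 ± 0.01 in wild type air (SD, n = 3 each), an interaction of -1.09 (SE 0.17, limma adjusted p = 0.0367). AR791 and AT1G73390 rose in both genotypes, by 0.44 and 0.65 in amiRAP2.2-12 and by 1.57 and 1.74 in wild type, while AT1G02460 rose in wild type by 2.09.

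The remaining 6 of lower interaction moved by less. AT3G49880 rose by 0.75 in wild type and had a difference of 0.12 in amiRAP2.2-12, an interaction of -0.63 (SE 0.10). For AT5G47440 (-0.60, SE 0.10), AT3G18770 (-0.40, SE 0.05) and AT2G47820 (-0.30, SE 0.04) both amiRAP2.2-12 groups and the wild type air group were at the floor, and for AT2G47820 the wild type hypoxia group was too, at 2.42 ± 0.07 (SD, n = 3). AT3G18770 encodes a relative of the autophagy protein ATG13. Over these 4 genes the SD within a group of either genotype was between 0.00 and 0.18. For those at the floor the p-values depend on the floor as well.

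AT3G02930 and AT1G56350 were the other kind. AT3G02930, a gene of a coiled-coil family, had values of 2.45, 2.49 and 2.60 in amiRAP2.2-12 hypoxia, 3.18, 3.33 and 3.28 in amiRAP2.2-12 air, 2.42, 2.43 and 2.54 in wild type hypoxia and 2.64, 2.54 and 2.54 in wild type air. It was higher in amiRAP2.2-12 air alone, where it exceeded wild type air by 0.69 (limma adjusted p = 0.0220), and the interaction was -0.64 (SE 0.11). Its wild type hypoxia group was at the floor, and amiRAP2.2-12 hypoxia and wild type air lay just above it. The size and p-value of this interaction therefore depend on the floor too. AT1G56350 averaged 5.65 ± 0.05 in amiRAP2.2-12 hypoxia and 6.04 ± 0.03 in amiRAP2.2-12 air, against 5.87 ± 0.15 in wild type hypoxia and 5.74 ± 0.05 in wild type air (SD, n = 3 each), an interaction of -0.52 (SE 0.09).

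Among the 9 named genes of higher interaction, AT3G04210 had the largest. It encodes a protein with the TIR and nucleotide-binding domains of disease resistance proteins. Its values were 8.36, 9.86 and 9.43 in amiRAP2.2-12 hypoxia, 9.07, 9.76 and 9.69 in amiRAP2.2-12 air, 7.03, 7.22 and 6.88 in wild type hypoxia and 9.89, 10.12 and 9.72 in wild type air. It fell by 2.87 in wild type, the difference in amiRAP2.2-12 was -0.29 and did not pass the threshold, and the interaction was 2.58 (SE 0.45, limma adjusted p = 0.0480, or 0.0673 without amiRAP2.2-12 hypoxia replicate 2). HA-RAP2.12 had a difference of 0.19 for this gene.

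AT4G36550, a plant U-box ubiquitin ligase gene, had values of 6.91, 7.39 and 7.15 in amiRAP2.2-12 hypoxia, 6.49, 6.75 and 7.09 in amiRAP2.2-12 air, 6.50, 5.88 and 5.86 in wild type hypoxia and 7.49, 7.48 and 7.42 in wild type air. It was below wild type in air on every array and above it under hypoxia on every array, and the interaction was 1.76 (SE 0.30, limma adjusted p = 0.0467, or 0.0732 without amiRAP2.2-12 hypoxia replicate 2). AT2G41090, a calmodulin-like calcium-binding protein gene, had values of 13.24, 13.80 and 13.42 in amiRAP2.2-12 hypoxia, 12.89, 12.98 and 13.23 in amiRAP2.2-12 air, 12.35, 12.28 and 12.04 in wild type hypoxia and 13.14, 13.07 and 13.14 in wild type air. It rose by 0.46 in amiRAP2.2-12 (limma adjusted p = 0.0441) and fell by 0.90 in wild type, an interaction of 1.35 (SE 0.20, limma adjusted p = 0.0308), and its hypoxia arrays did not overlap between genotypes.

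A trio of strongly lowered genes fell in both genotypes, by less in amiRAP2.2-12. AT2G10940, a gene of the lipid transfer protein superfamily, averaged 11.38 ± 0.32 in amiRAP2.2-12 hypoxia and 12.99 ± 0.32 in amiRAP2.2-12 air, against 10.11 ± 0.22 in wild type hypoxia and 13.42 ± 0.24 in wild type air (SD, n = 3 each), an interaction of 1.70 (SE 0.28, limma adjusted p = 0.0435, or 0.0698 without amiRAP2.2-12 hypoxia replicate 2). AT2G42040 fell by 2.01 in amiRAP2.2-12 and by 3.01 in wild type, an interaction of 1.00 (SE 0.17), and AT1G10020 fell by 1.69 in amiRAP2.2-12 and by 2.54 in wild type, an interaction of 0.85 (SE 0.11). In all 3 the hypoxia arrays did not overlap between genotypes while the air arrays did.

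**Figure D2:**
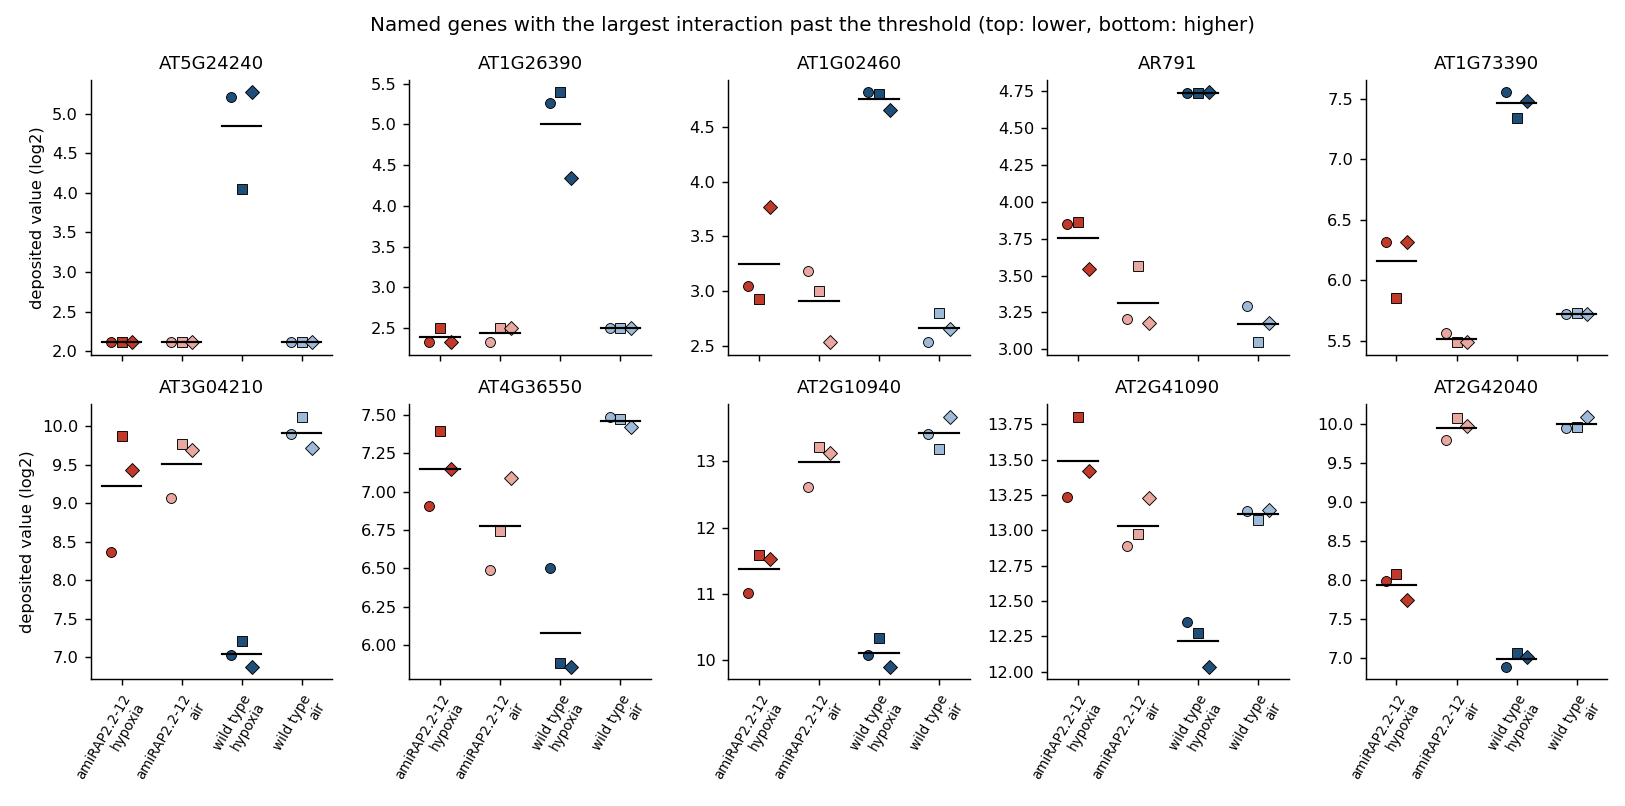
Deposited log2 values by array for the 5 named genes with the most negative interaction (top row) and the 5 with the most positive one (bottom row), with circles for replicate 1, squares for replicate 2, diamonds for replicate 3 and a line at each group mean. Wild type hypoxia stands apart from the other 3 groups for AT5G24240 and AT1G26390 above and for AT3G04210 below, and AT2G10940 and AT2G42040 fall under hypoxia in both genotypes.

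The last 3 had a smaller interaction. AT2G35410, which encodes an RNA-binding protein, fell by 0.36 in amiRAP2.2-12 and by 0.96 in wild type (interaction 0.60, SE 0.10). AT5G05450, a DEAD-box RNA helicase gene, fell by 0.35 in amiRAP2.2-12 and by 0.88 in wild type (interaction 0.53, SE 0.08). MOB1-like (AT5G45550), a homologue of the MOB kinase activators, fell by 0.60 in wild type and had a difference of 0.07 in amiRAP2.2-12 (interaction 0.67, SE 0.11). It was lower in amiRAP2.2-12 than in wild type on every air array and higher on every hypoxia array.

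LHCB4.3, an isoform of the CP29 antenna protein of photosystem II, came next and did not pass the threshold. Its values were 9.39, 9.87 and 9.95 in amiRAP2.2-12 hypoxia, 10.09, 9.88 and 9.93 in amiRAP2.2-12 air, 7.98, 7.95 and 7.66 in wild type hypoxia and 9.68, 9.60 and 9.66 in wild type air. The wild type hypoxia arrays lay below all others, and the interaction was 1.55 (SE 0.28, limma adjusted p = 0.0539). Its limma adjusted p was 0.0493 after quantile normalization and 0.0353 after median centring. It did not pass with only the 12 arrays, with a replicate block or without amiRAP2.2-12 hypoxia replicate 2.

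Of the other 20 probe sets, 19 were not listed in the annotation and 1 named several genes. The probe set 265418_at had values of 7.94, 7.55 and 7.94 in amiRAP2.2-12 hypoxia, 2.88, 2.83 and 2.83 in amiRAP2.2-12 air, 9.74, 9.64 and 9.81 in wild type hypoxia and 2.88, 2.83 and 2.83 in wild type air. It rose strongly in both genotypes, by 4.96 in amiRAP2.2-12 and by 6.88 in wild type on arrays that hardly varied within a group, an interaction of -1.92 (SE 0.24, limma adjusted p = 0.0164). The probe set 248248_at had an interaction of -1.68 (SE 0.25).

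On the other side, 266010_at had values of 2.24, 4.24 and 3.0 in amiRAP2.2-12 hypoxia, 3.19, 3.44 and 3.54 in amiRAP2.2-12 air, 2.36, 2.24 and 3.23 in wild type hypoxia and 6.29, 6.00 and 6.22 in wild type air. Here wild type air alone stood apart, and the interaction was 3.33 (SE 0.57, limma adjusted p = 0.0467). The interaction of 258920_at was 1.89 (SE 0.29).

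The threshold lay in a dense region of the ranking, and the number of calls moved with single arrays. It was 394 without amiRAP2.2-12 hypoxia replicate 1 and 326 without amiRAP2.2-12 air replicate 3, both including all 40. It was 10 without amiRAP2.2-12 air replicate 1, 18 without amiRAP2.2-12 air replicate 2, 26 without wild type hypoxia replicate 1, 22 without wild type hypoxia replicate 3, 15 without wild type air replicate 1, 11 without wild type air replicate 2 and 0 without wild type air replicate 3, where limma's smallest adjusted p was 0.0542 and 1839 had an unadjusted p under 0.05. Without amiRAP2.2-12 hypoxia replicate 2, the array that stood apart, 36 passed, of which 19 were among the 40. Of the 20 named genes 8 then passed (AT5G24240, AR791, AT1G73390, AT3G18770, AT2G47820, AT2G41090, AT1G10020 and AT5G05450), and the other 12 had limma adjusted p between 0.0596 and 0.0777. With the array medians centred 16 of the 20 passed, with the replicate block 8, and 2 without 4 arrays that deviated together (replicate 2 of both amiRAP2.2-12 groups and replicate 1 of both HA-RAP2.12 groups, chosen after seeing the data). None of the 20 named genes changed its sign in any of these fits, and their sizes stayed close: AT5G24240 ranged between -3.13 and -2.5 over all alternatives that could be fitted, AT1G10020 between 0.77 and 0.93, and AR791 between -1.35 and -1.0. Centring each array on the common median gave 30 higher and 19 lower calls, in place of 18 and 22.

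**Figure D3:**
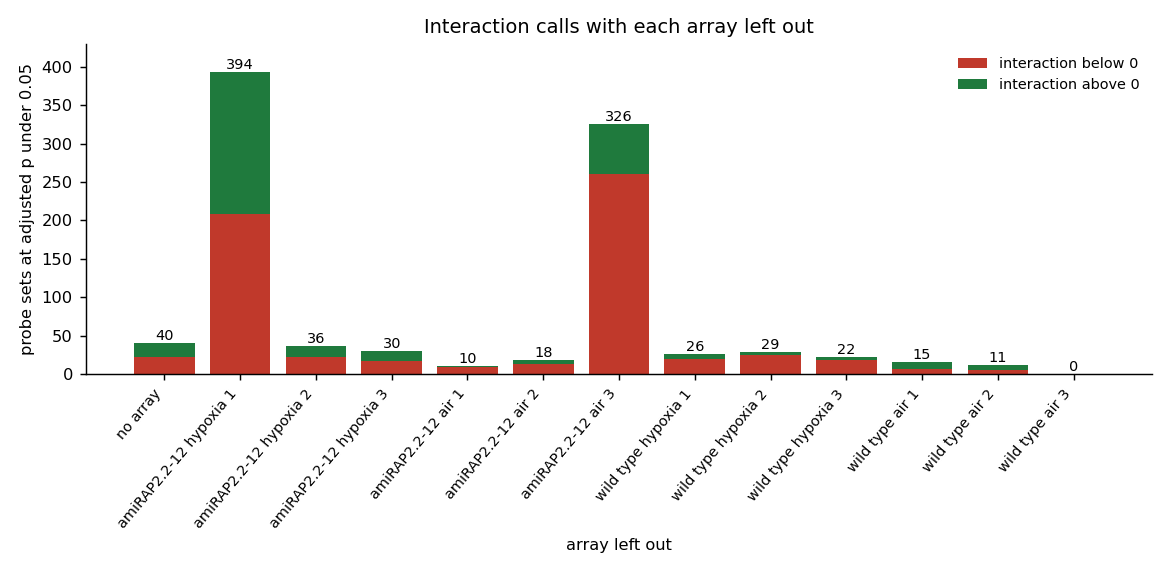
Number of probe sets with an interaction past the threshold (adjusted p under 0.05) in the fit of all arrays and with each of the 12 amiRAP2.2-12 and wild type arrays left out, split into interactions below 0 (red) and above 0 (green). The count is 40 with no array left out, 394 without amiRAP2.2-12 hypoxia replicate 1 and 0 without wild type air replicate 3.

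The low-oxygen genes, which plants induce in nearly every tissue when oxygen falls, had a smaller median response in amiRAP2.2-12, and none of them passed the threshold for the interaction in the fit with equal weights. With limma's arrayWeights, 13 passed with a lower and 1 with a higher interaction, against 1.87% and 1.36% of all probe sets, and the list median was -1.38. The weights of amiRAP2.2-12 hypoxia replicates 1, 2 and 3 were 0.446, 0.128 and 2.372. These calls therefore lean on replicate 3 of that group, and replicate 1 counted for much less. Of the 54 genes on the list, 28 had a named probe set. Their median response was 2.40 in amiRAP2.2-12 and 3.81 in wild type. It was 2.01 in HA-RAP2.12, so a smaller median than in wild type was not particular to amiRAP2.2-12. The median interaction was -1.19, against 0.00 over all probe sets, with 24 of 28 below 0, against 59.5% of all probe sets. At an unadjusted p under 0.05, 14 were lower and 3 higher, against 5.32% and 4.27% of all probe sets. For 16 of the 28 every amiRAP2.2-12 hypoxia array was below every wild type hypoxia array, against 6.59% of all probe sets. In amiRAP2.2-12, 21 rose and 1 fell, against 8.04% and 8.27% of all probe sets. In wild type 25 rose and 2 fell, against 11.5% and 10.3% of all probe sets. The list was chosen with earlier results of these data known, and its members respond to hypoxia far more often than other probe sets. The shares of all probe sets are thus an unlike background, and the counts describe the list.

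The 3 amiRAP2.2-12 hypoxia arrays did not agree on these genes. The mean over the list was 10.37, 8.65 and 8.79 on them, 6.33, 6.15 and 6.40 in amiRAP2.2-12 air, 10.61, 10.62 and 10.57 in wild type hypoxia and 6.47, 6.49 and 6.54 in wild type air. Replicate 1 thus lay near wild type hypoxia and replicates 2 and 3 lay lower, and replicate 1 was the highest of the 3 for 24 of the 25 members that rose in wild type. For those 25, the median difference from the wild type hypoxia mean was -0.19 in replicate 1, -1.98 in replicate 2 and -1.89 in replicate 3.

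HRA1 (AT3G10040), a trihelix transcription factor that restrains RAP2.12, had values of 11.61, 10.34 and 9.82 in amiRAP2.2-12 hypoxia, 3.57, 3.39 and 3.56 in amiRAP2.2-12 air, 11.97, 12.04 and 11.64 in wild type hypoxia and 3.42, 3.42 and 3.39 in wild type air. All amiRAP2.2-12 hypoxia values were below all wild type hypoxia values, that of replicate 1 only just. The interaction was -1.39 (SE 0.47, limma adjusted p = 0.319).

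AT5G10040, which encodes a protein of unknown function, had values of 9.66, 3.10 and 5.30 in amiRAP2.2-12 hypoxia, 2.40, 2.38 and 2.44 in amiRAP2.2-12 air, 9.98, 9.98 and 9.84 in wild type hypoxia and 2.38, 2.38 and 2.44 in wild type air. Replicate 1 was close to wild type, replicate 2 close to the air level and replicate 3 between them, and the interaction was -3.92 (SE 1.55, limma adjusted p = 0.421). AT2G17850, a rhodanese-like gene, had values of 10.99, 6.63 and 7.44 in amiRAP2.2-12 hypoxia against 11.02, 11.10 and 10.76 in wild type hypoxia, with both air groups at the floor (interaction -2.78, SE 1.15, limma adjusted p = 0.450). AT5G66985 had values of 9.31, 5.88 and 6.86 in amiRAP2.2-12 hypoxia against 9.82, 9.81 and 9.69 in wild type hypoxia, and 2.11 on every air array of both genotypes (interaction -2.42, SE 0.82, limma adjusted p = 0.332).

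Among the 10 members with the largest wild type response, which include HRA1 and the 3 genes just given, the interaction was between -3.92 and -0.44. AT4G10270, of the family named wound-responsive and the most induced member in wild type, had values of 13.82, 12.76 and 12.55 in amiRAP2.2-12 hypoxia, 4.80, 3.20 and 3.51 in amiRAP2.2-12 air, 13.94, 14.08 and 13.98 in wild type hypoxia and 3.21, 3.37 and 3.39 in wild type air (interaction -1.47, SE 0.52, limma adjusted p = 0.362). AT1G33055 reached 13.42, 12.84 and 12.64 in amiRAP2.2-12 hypoxia against 13.35, 13.34 and 13.47 in wild type hypoxia, with an interaction of -0.44 (SE 0.34, limma adjusted p = 0.781). The others of the 10 were AT4G33560 (-1.66), AT3G27220, a kelch repeat gene (-1.21), AT3G23170 (-1.91) and AT4G24110 (-1.77), each with replicate 1 highest of the 3 amiRAP2.2-12 hypoxia arrays.

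PDC2, a pyruvate decarboxylase gene of ethanol fermentation, had values of 11.40, 10.02 and 9.97 in amiRAP2.2-12 hypoxia, 9.06, 9.54 and 9.32 in amiRAP2.2-12 air, 11.98, 11.79 and 12.08 in wild type hypoxia and 9.83, 9.79 and 9.71 in wild type air. It was lower in amiRAP2.2-12 in both conditions without overlap, and the interaction was -1.02 (SE 0.42, limma adjusted p = 0.452). Of the other members with the smallest p, AT1G74940 had an interaction of -0.78 (SE 0.26) and AT4G33980, a cold-regulated gene that hypoxia lowered, one of 1.48 (SE 0.45).

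Without amiRAP2.2-12 hypoxia replicate 1, 15 of the 28 passed with a lower interaction and 1 with a higher one, against 0.914% and 0.818% of all probe sets, and the list median was -1.71. HRA1 then had an interaction of -1.91 (limma adjusted p = 0.00314), AT5G66985 one of -3.40 (limma adjusted p = 0.000119), AT5G10040 one of -5.74 (limma adjusted p = 0.000814) and PDC2 one of -1.49 (limma adjusted p = 0.00415). The array left out here is the one whose values lay nearest to wild type, so its removal widens the difference. Without replicate 2, the array that stood apart, none passed and the list median was -0.89, and without replicate 3 none passed and it was -0.97.

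Heat shock genes, whose products protect and refold proteins, had the same split. Of 21 on the list 8 were measured, with a median response of 1.94 in amiRAP2.2-12 and 4.28 in wild type and a median interaction of -1.19. In HA-RAP2.12 the median response was 0.88, also smaller than in wild type. A pair of the 8, ATHSP22.0 and AT1G52560, was at the floor in all 4 groups, and over the members above log2 4 on at least 3 arrays the median was -1.90. None passed adjusted (2 did with arrayWeights, both lower, against 1.87% of all probe sets). At an unadjusted p under 0.05 there were 3, all with a lower interaction, against 5.32% of all probe sets. The list mean was 6.24, 3.60 and 4.15 in amiRAP2.2-12 hypoxia, 2.86, 2.69 and 2.71 in amiRAP2.2-12 air, 6.03, 6.27 and 6.15 in wild type hypoxia and 2.65, 2.78 and 2.79 in wild type air, with replicate 1 again at the wild type level.

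AT2G29500, a small heat shock protein gene, had values of 8.89, 2.96 and 4.76 in amiRAP2.2-12 hypoxia, 3.85, 2.67 and 2.24 in amiRAP2.2-12 air, 9.59, 9.81 and 9.46 in wild type hypoxia and 2.56, 2.81 and 2.22 in wild type air. It spanned nearly the whole range between the wild type groups within the 3 amiRAP2.2-12 hypoxia arrays, and the interaction was -4.47 (SE 1.51, limma adjusted p = 0.325). AT1G53540, another small heat shock protein gene (6.05, 2.5 and 2.21 in amiRAP2.2-12 hypoxia against 6.50, 6.71 and 7.16 in wild type hypoxia), had an interaction of -3.23 (SE 1.01, limma adjusted p = 0.283). The co-chaperone gene Hop3 (-2.29, SE 1.07) and AT5G48570, a peptidyl-prolyl isomerase gene (-1.51, SE 0.66), followed. Without amiRAP2.2-12 hypoxia replicate 1, 3 of the 8 passed, all lower, against 0.914% of all probe sets. The list median was then -2.07, against -0.57 without replicate 2.

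**Figure D4:**
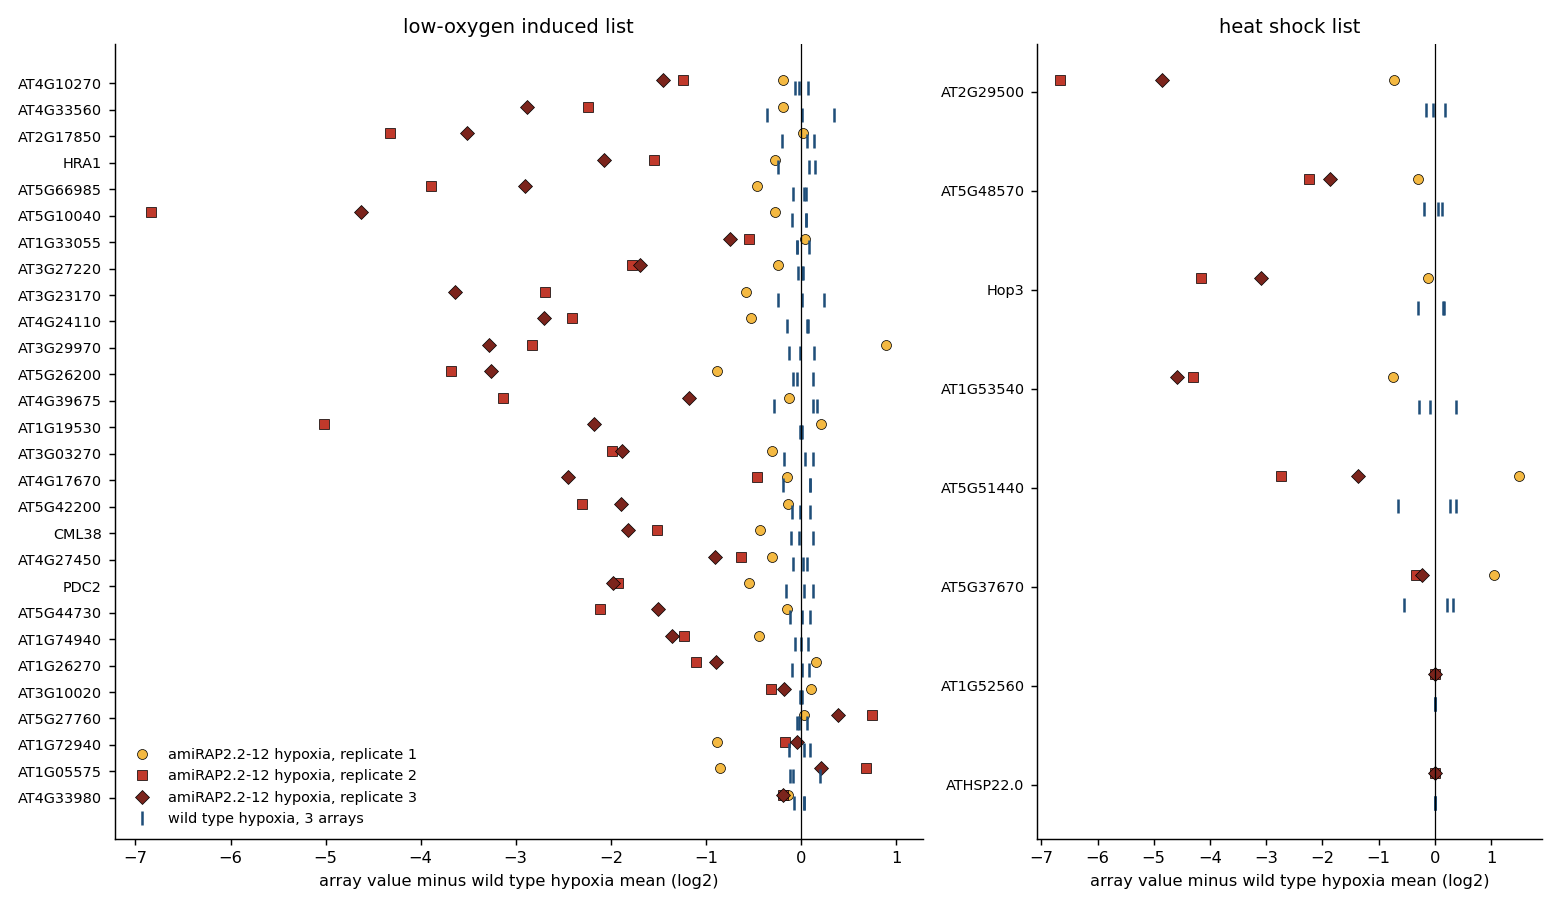
Each amiRAP2.2-12 hypoxia array minus the wild type hypoxia mean (log2, horizontal axis) for the 28 measured low-oxygen genes (left) and the 8 measured heat shock genes (right), ordered by wild type response, with the 3 wild type hypoxia arrays as blue ticks. Replicate 1 (yellow circles) lies near the wild type ticks for most genes that wild type induced, and replicates 2 and 3 lie to the left of them.

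Of 17 fermentation and sucrose breakdown genes 5 were measured, with a median interaction of -0.40 (between -0.59 and -0.21 over the alternatives) and 1, PDC2, at an unadjusted p under 0.05. AT4G17260, a lactate dehydrogenase gene, rose by 1.12 in amiRAP2.2-12 and by 1.54 in wild type, a difference between the responses of -0.42 (95% interval -1.07 to 0.23). PPDK, which encodes pyruvate orthophosphate dikinase, fell by 1.90 in amiRAP2.2-12 and by 1.50 in wild type, a difference of -0.40 (95% interval -1.18 to 0.37).

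In the cell wall and photosynthesis lists most interactions were above 0, and no member passed. Of 9 measured cell wall and expansion genes, 4 fell and 1 rose in wild type, against 10.3% and 11.5% of all probe sets. An interaction above 0 was found for 7, against 39.6% of all probe sets. At an unadjusted p under 0.05, 3 were higher, against 4.27% of all probe sets. The list median was 0.26, but 0.09 without amiRAP2.2-12 air replicate 3, 0.40 without amiRAP2.2-12 hypoxia replicate 2 and 0.63 over the members above log2 4 on at least 3 arrays. EXO, a gene of brassinosteroid-dependent leaf growth, had values of 8.26, 8.71 and 8.44 in amiRAP2.2-12 hypoxia, 10.31, 11.71 and 10.82 in amiRAP2.2-12 air, 6.54, 6.68 and 6.11 in wild type hypoxia and 10.37, 10.50 and 10.42 in wild type air. It fell in both genotypes and its hypoxia arrays did not overlap, with an interaction of 1.51 (SE 0.53, limma adjusted p = 0.356). EXLA1, an expansin-like gene, fell by 3.92 in amiRAP2.2-12 and by 4.92 in wild type (interaction 1.01, SE 0.41), and XTH18, which encodes a xyloglucan endotransglucosylase/hydrolase, fell by 2.39 in wild type and had a difference of -0.19 in amiRAP2.2-12 (interaction 2.2, SE 0.83).

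Among 6 measured nuclear genes of photosynthesis, 3 fell in wild type, against 10.3% of all probe sets, and 5 had an interaction above 0, against 39.6%. The list median was 0.20. At an unadjusted p under 0.05, 4 were higher, against 4.27% of all probe sets. Beside LHCB4.3 these were small: SBPASE 0.21 (SE 0.08), LHCB4.1, another CP29 isoform, 0.20 (SE 0.07), and PRK, phosphoribulokinase, 0.36 (SE 0.16). Of 69 chloroplast-encoded probe sets, 1 rose and 1 fell in wild type, against 11.5% and 10.3% of all probe sets. An interaction above 0 was found for 58, against 39.6% of all probe sets, and 0 passed. At an unadjusted p under 0.05, 4 of the 69 were higher, which is near the 4.27% of all probe sets. The list median was 0.33, but 0.17 without amiRAP2.2-12 hypoxia replicate 1, 0.60 without replicate 2 of that group, 0.59 without wild type hypoxia replicate 1, 0.16 without wild type hypoxia replicate 2, 0.53 without the 4 arrays that deviated together and 0.75 with arrayWeights. Their mean was 10.86, 9.92 and 10.52 in amiRAP2.2-12 hypoxia, 10.68, 10.00 and 9.97 in amiRAP2.2-12 air, 10.12, 9.55 and 9.90 in wild type hypoxia and 10.24, 10.29 and 10.10 in wild type air, so the amiRAP2.2-12 replicates spread over a wider range than the interaction. The 4 were rpoB, a subunit of the plastid RNA polymerase (1.98), ycf3, a photosystem I assembly factor (2.01), and the ribosomal protein genes rps14 (2.82) and rps15 (0.86).

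Stress-signalling genes spread widely. Of 4 measured rapid stress genes, AT4G29780 had an interaction of 2.17 (SE 0.89), and STZ, a zinc-finger repressor, one of 1.02 (SE 0.56). WRKY53 (0.32, SE 0.44) and WRKY6 (-0.20, SE 0.56), both WRKY transcription factors, were closer to 0. Of 8 measured members of the calmodulin-like list, which does not hold AT2G41090, 5 were above 0, against 39.6% of all probe sets. The list median was 0.57 and 0 passed at either threshold. Those above 0 included AT5G39670 (1.74, SE 0.93), AT3G01830 (1.49, SE 0.95), AT4G27280 (1.16, SE 0.55) and AT3G47480 (0.97, SE 0.65). Replicate 2, the array that stood apart, was the highest of the 3 amiRAP2.2-12 hypoxia arrays for every one of these 8 named genes except AT4G29780. The reason for the higher values of replicate 2 was not tested. Without it the medians were 0.19 for the rapid stress genes, in place of 0.67, and 0.21 for the calmodulin-like genes. Without replicate 1 of that group the median of the rapid stress genes was 1.05, and over the calmodulin-like genes above log2 4 on at least 3 arrays it was 1.16.

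Defence genes of the salicylic acid type divided. Of 9 measured, 1, AT1G26390, passed with a lower interaction, against 0.0967% of all probe sets. At an unadjusted p under 0.05 there were 3 lower beside 1 higher, against 5.32% and 4.27% of all probe sets. The list median was -0.02. That median was 0.06 after median centring, -0.66 without amiRAP2.2-12 air replicate 3 and -1.01 over the 8 members above log2 4 on at least 3 arrays. GRX480, a glutaredoxin gene induced by salicylic acid, had values of 5.92, 7.58 and 7.17 in amiRAP2.2-12 hypoxia, 5.56, 5.8 and 3.76 in amiRAP2.2-12 air, 8.14, 8.25 and 8.34 in wild type hypoxia and 3.77, 4.72 and 3.75 in wild type air (interaction -2.31, SE 0.77, limma adjusted p = 0.314). CHI, a chitinase gene, had values of 3.49, 4.42 and 3.49 in amiRAP2.2-12 hypoxia, 3.49, 3.44 and 2.86 in amiRAP2.2-12 air, 6.55, 6.60 and 6.63 in wild type hypoxia and 4.09, 3.49 and 4.13 in wild type air, so wild type hypoxia alone stood apart (interaction -2.15, SE 0.99, limma adjusted p = 0.518). AT1G72920, a TIR domain gene, had an interaction of 1.57 (SE 0.60).

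The most negative interaction of any list member was that of AT2G38240, a jasmonate-induced dioxygenase gene. Its values were 3.05, 4.00 and 2.74 in amiRAP2.2-12 hypoxia, 11.47, 9.64 and 4.80 in amiRAP2.2-12 air, 2.74 on each wild type hypoxia array, and 3.02, 3.05 and 2.95 in wild type air. The difference came from high and uneven amiRAP2.2-12 air values, and the interaction was -5.10 (SE 1.86, limma adjusted p = 0.376), or -7.02 (limma adjusted p = 0.0108) without amiRAP2.2-12 air replicate 3. THI2.1 (-0.42, SE 0.31) and PDF1.2 (-0.56, SE 1.15), a thionin and a defensin gene of the same list, did not pass.

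**Figure D5:**
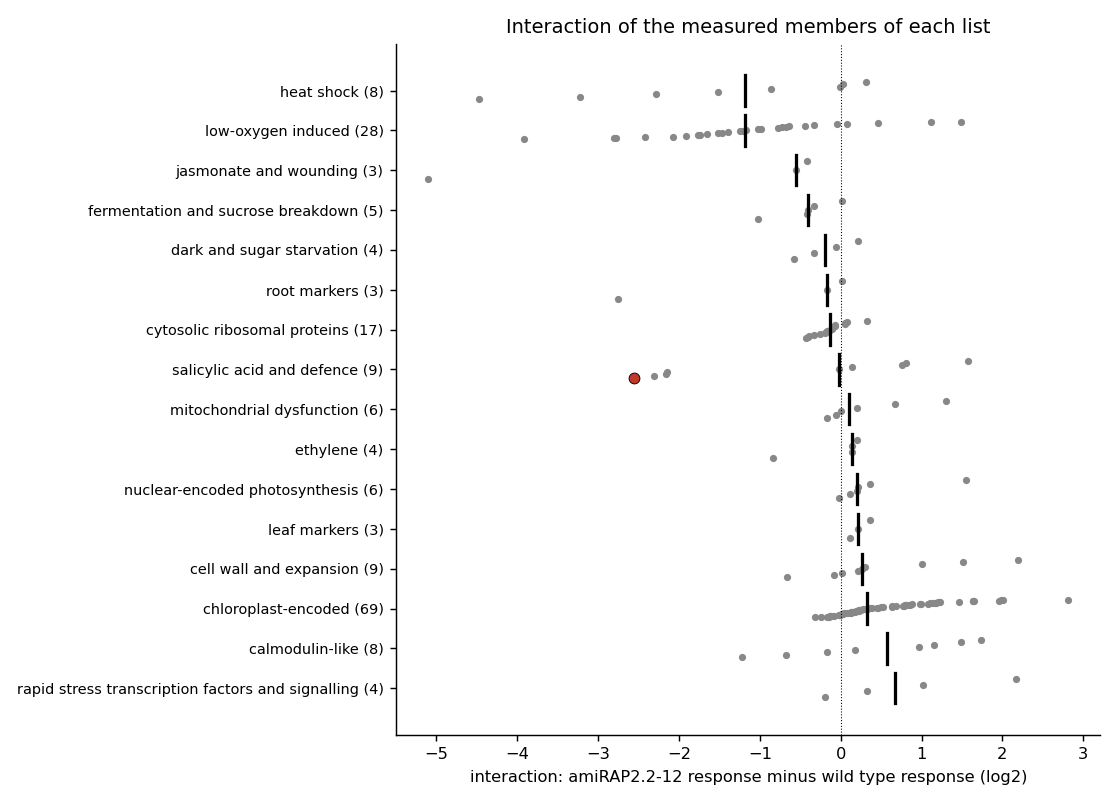
Interaction of each measured member (points, log2, horizontal axis) for the lists with at least 3 measured members, with the number measured in parentheses and a black bar at the list median. The low-oxygen and heat shock lists have the lowest medians (-1.19 each), the rapid stress list the highest (0.67), and 1 member of all lists, AT1G26390 (red), passed the threshold.

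The remaining lists had few measured members. In the dark and sugar starvation list (4 measured, median -0.19), MCCB, a methylcrotonyl-CoA carboxylase subunit, had an interaction of -0.58 (SE 0.18) and AT3G15450 one of 0.21 (SE 0.06), while IVD (-0.33, SE 0.25) and MCCA (-0.06, SE 0.16, but 0.02 after median centring), which also act in leucine breakdown, did not reach an unadjusted p of 0.05. Of 6 mitochondrial dysfunction genes (median 0.10), AT2G41730 had an interaction of 1.31 (SE 0.48) and NDB2, an alternative NADH dehydrogenase gene, one of 0.67 (SE 0.40). Of 4 ethylene genes (median 0.14), AT2G25450 had one of -0.84 (SE 0.36), RTE1 one of 0.14 (SE 0.11) and EIN3 one of 0.14 (SE 0.18). Both measured members of the abscisic acid and cold list had a negative interaction: the dehydrin gene COR47 (-0.74, SE 0.35) and COR15A (-0.36, SE 0.34). Neither passed, though COR47 did with arrayWeights (-1.15, limma adjusted p = 0.027). The clock gene GI (0.06, SE 0.14) and the guard cell gene FMA (0.21, SE 0.37) did not pass.

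The 17 measured cytosolic ribosomal protein genes had a median interaction of -0.14 with 0 at either threshold. Their mean was 12.05, 11.08 and 11.92 in amiRAP2.2-12 hypoxia, 11.94, 11.79 and 12.00 in amiRAP2.2-12 air, 11.81, 11.83 and 11.69 in wild type hypoxia and 11.90, 11.84 and 11.87 in wild type air. Replicate 2 of amiRAP2.2-12 hypoxia, the array that stood apart, was low, and without it the list median was 0.14, and without replicate 1 of that group it was -0.30. In whole rosettes, less RNA per cell and fewer cells of a type cannot be told apart.

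A further set was taken from the HA-RAP2.12 arrays alone, so that its choice used none of the 12 arrays of the interaction. Hypoxia lowered 648 probe sets at least 2-fold there. Their median response was -1.29 in amiRAP2.2-12 and -1.41 in wild type, 65.7% had an interaction above 0 against 39.6% of all probe sets, and 6 passed with a higher interaction and 0 with a lower one, against 0.0791% and 0.0967% of all probe sets. At an unadjusted p under 0.05, 20.2% were higher and 3.24% lower. The shares over all probe sets include the 7700 at the floor in all 4 groups. Hypoxia raised 792 probe sets in HA-RAP2.12. Their median response was 1.06 in amiRAP2.2-12 and 1.02 in wild type, 50.3% had an interaction below 0 against 59.5% of all probe sets, and 4 passed with a lower and 1 with a higher one. At an unadjusted p under 0.05, 19.2% were lower and 14.8% higher, and the median interaction was 0.00, or -0.16 without amiRAP2.2-12 hypoxia replicate 2.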

How the data were processed

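The authors deposited log2 values, 1 per probe set and array. The submitters' processing notes name GCRMA without a version, a method that subtracts a background estimated from probe sequence, quantile-normalizes the arrays and summarises probes. Of 22810 probe sets, 64 controls were left out. Current gene symbols (assembly TAIR10.1) named 13436 of the 13513 probe sets with 1 gene, 77 kept the platform's name, and 503 named several. No filter was applied. Arrays carry no read depth, and their number limits the precision.

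Means of 6 groups were fitted to 18 arrays with limma 3.58.1 (R 4.3.3, lmFit and eBayes) without a replicate block, two-sided. The fit was tested on simulated data of 22746 probe sets: interactions of log2 0.5 were found in 6% of cases, those of 1 in 46%, those of 2 in 90% and those of 3 in 100%, and 8 of 129 calls were false. Figures used Python 3.11.15 and matplotlib 3.10.9.

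Named genes are all called probe sets of 1 gene (up to 15 a direction, filled to 10), up to 4 members a list by smallest p, the 10 low-oxygen genes of largest wild type response, and HRA1 and PDC2. The members, the 24 lists and this rule were chosen with earlier results of these data known. A gene with several probe sets was represented by the brightest. Alternatives to the normalization, the dim probe sets, the variance model, the arrays in the fit, the replicate block and single arrays were tried, with effects in the closing section.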

Additional observations from a re-analysis of the deposited data

Results flagged for a closer look

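For 24 of the probe sets described above, the response to hypoxia differed between amiRAP2.2-12 and wild type by the interaction term itself, limma's test of that difference at an adjusted p under 0.05. The interactions below 0 were -2.74 for AT5G24240, -2.56 for AT1G26390, -1.92 for 265418_at, -1.75 for AT1G02460, -1.68 for 248248_at, -1.13 for AR791, -1.09 for AT1G73390, -0.64 for AT3G02930, -0.63 for AT3G49880, -0.60 for AT5G47440, -0.52 for AT1G56350, -0.40 for AT3G18770 and -0.30 for AT2G47820. Those above 0 were 0.53 for AT5G05450, 0.60 for AT2G35410, 0.67 for MOB1-like, 0.85 for AT1G10020, 1.00 for AT2G42040, 1.35 for AT2G41090, 1.70 for AT2G10940, 1.76 for AT4G36550, 1.89 for 258920_at, 2.58 for AT3G04210 and 3.33 for 266010_at. With 3 arrays a group, no p-value was computed for an array standing apart. Replicate 2 of amiRAP2.2-12 hypoxia was described so by its weight and its median. AR791 and 265418_at passed in 19 of 21 alternatives each, and AT5G24240 and AT1G10020 in 18 of 21. The p-values of AT5G24240 depend on its values at the floor. AT1G56350 passed in 5 of 21 and AT3G02930 in 5 of 20.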

How the results depend on the processing

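The 40 interaction calls became 20 with a change of at least 2-fold, 63 among the 13697 brighter probe sets, 735 with arrayWeights, 8 with only the 12 arrays (1 of the 40 among them) and 25 (2 of the 40) without 4 arrays that deviated together, an alternative chosen after seeing the data. Those 4 were replicate 2 of both amiRAP2.2-12 groups and replicate 1 of both HA-RAP2.12 groups, whose deviations correlated between 0.242 and 0.634. Quantile normalization gave 39 (34 of the 40), median centring 49, leaving out _s_at and _x_at probe sets 39, and eBayes with trend and robust 34. Leaving out single arrays gave between 0 and 394. For the 3711 response calls in amiRAP2.2-12 it gave between 2843 and 3581, and for the 4951 in wild type between 3904 and 5669. With a change of at least 2-fold amiRAP2.2-12 had 1256 and wild type 1608, and no other alternative moved either count by over 1.5 times. The cause of these moves was not tested. None of the 24 named interactions past the threshold changed sign in the 21 alternatives.

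The replicate block gave 15 interaction calls, all among the 40. The labels do not pair samples by replicate number. Deviations of same-numbered arrays correlated between -0.144 and 0.49 (median 0.05), and an array correlated best with its own number in 20 of 36 cases.

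Signs changed for 9 uncalled genes. With arrayWeights the interactions were 0.01 for AT1G12000, -0.16 for WRKY53, 0.02 for MCCA, 0.24 for AT2G21640, -0.01 for EIN3, -0.03 for GI and -0.05 for FMA. MCCA was also 0.02 with median centring, and without the 4 arrays MCCA was 0.00 and AT2G21640 0.13. With single arrays left out, WRKY53 ranged between -0.09 and 0.58, WRKY6 between -0.75 and 0.15, AT2G21640 between -0.38 and 0.20, AT2G01250 between -0.55 and 0.02, GI between -0.01 and 0.13, and FMA between -0.10 and 0.37.

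Both amiRAP2.2-12 groups were under log2 2.5 for 6 of the 22 lower interactions, whose sizes and p-values depend on that floor. AT3G02930 is not among them, but its wild type hypoxia group was at the floor.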
